A study of Saccharomyces cerevisiae with 14 samples.

Results

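Formaldehyde cross-linked RNA immunoprecipitation with sequencing (RIP-seq) was used here to set the RNAs recovered with Puf5 directly against the RNAs recovered with Dhh1, without the untagged control between them. Of the 14 libraries of the series, 6 enter the comparison, 3 Puf5 IP and 3 Dhh1 IP libraries, and all 5945 RNA rows of the count table were compared, 4792 of them mRNAs. The Puf5 IP came from budding yeast (Saccharomyces cerevisiae) carrying myc-tagged Puf5 and the Dhh1 IP from yeast carrying myc-tagged Dhh1. Both strains were built in the laboratory strain BY4741, were grown in rich medium at 30 °C, and were treated with formaldehyde before lysis, and both IPs used 1 monoclonal antibody against the myc tag. Each tagged strain is 1 construct, so a difference between the IPs cannot be told apart from a difference between the strains, and an IP on cross-linked extract recovers RNAs held through partner proteins as well as RNAs bound by the tagged protein. The same antibody applied to untagged BY4741 extract (UT IP, 3 libraries) and the unselected RNA of that extract (UT input, 2 libraries) are used only as side values.

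Puf5, whose gene has the RefSeq symbol MPT5, is a member of the Puf family of RNA-binding proteins. Puf proteins read short UGU-containing elements, mostly in 3′ UTRs, and repress the mRNAs that carry them, in yeast largely by bringing in the Ccr4-Not deadenylase. Dhh1 is a DEAD-box RNA helicase of the cytoplasmic decay machinery that represses translation, activates decapping and binds Ccr4-Not, and it contacts RNA with little known sequence preference. The question of the direct comparison is which mRNAs are selective for the sequence-specific protein and which for the helicase.

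The 6 libraries held between 20536505 and 23482808 reads, of which rRNA took between 95.5% and 96.9%. mRNAs made up 3.07% ± 0.306 of the reads in the Puf5 IP and 3.43% ± 0.357 in the Dhh1 IP (SD, n = 3 each). The libraries of the groups overlapped (exact two-sided permutation test, p = 0.5, where 3 against 3 libraries cannot go below 0.1). With rRNA left out of the total, mRNAs made up 87.7% of the Puf5 IP and 85.1% of the Dhh1 IP, and the libraries no longer overlapped (p = 0.1, exact permutation test). The direction of a small difference therefore depends on the total the reads are set against. The median mRNA had a log2 ratio of Puf5 IP to Dhh1 IP of −0.34 with library totals and of −0.01 with TMM factors (edgeR's trimmed mean of M values, which assumes that most RNAs do not differ). All log2 values below are Puf5 IP over Dhh1 IP on library totals including rRNA, and the median of −0.34 is to be set beside each of them. This scaling was chosen here. The study's methods name a control for library size in ratios to the untagged control, without saying whether rRNA counts towards it. Of the 4545 mRNAs tested, 934 had a log2 above 0.

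The genes of the tagged proteins were read first. MPT5 itself was sparse, with 36, 13 and 31 reads in the Puf5 IP libraries, against 17, 14 and 10 in the Dhh1 IP libraries, and did not pass the test (log2 0.85 ± 0.43 SE, adjusted p = 0.131). DHH1 mRNA had 980, 610 and 862 reads in the Puf5 IP libraries, against 296, 210 and 253 in the Dhh1 IP libraries, and was higher in the Puf5 IP (log2 1.62 ± 0.18 SE, adjusted p = 3.29e-07). In the UT IP, DHH1 had 237, 252 and 234 reads, level with the Dhh1 IP. MPT5 carries the tag only in the Puf5 IP strain and DHH1 only in the Dhh1 IP strain. The ratio of MPT5 cannot be told apart from that difference between the strains. DHH1 is untagged in the strains of both the Puf5 IP and the UT IP, and its log2 of Puf5 IP over UT IP was 1.76. Whether the tag plays a part in its ratio to the Dhh1 IP was not tested. The mRNA of Ccr4, the deadenylase that both proteins bind, had 178, 172 and 204 reads in the Puf5 IP libraries, against 241, 183 and 212 in the Dhh1 IP libraries and did not pass the test (log2 −0.26 ± 0.18 SE, adjusted p = 0.297; the sign turns with TMM factors, to 0.07). Of the genes that BY4741 lacks in whole or in part, LEU2 and MET17 had between 0 and 2 reads in each of the 6 libraries and URA3 between 0 and 5. HIS3, of which BY4741 keeps a part, had 40, 48 and 31 reads in the Puf5 IP libraries, against 108, 64 and 60 in the Dhh1 IP libraries.

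A direct test separated 94 mRNAs that were higher and 80 that were lower in the Puf5 IP, out of 4545 tested, at a false discovery rate (FDR) under 1% and a change of more than 2-fold. The test was edgeR's quasi-likelihood F test with Benjamini-Hochberg adjustment over all 4793 RNAs that passed its filter on low counts, and every adjusted p below comes from it unless another test is named. The calls were thus 2.07% of the mRNAs tested in the Puf5 direction and 1.76% in the Dhh1 direction. These shares are to be set beside each count of called list members below. The sides differed in size of change: 20 of the 94 mRNAs higher in the Puf5 IP exceeded a log2 of 2 and the top one reached 3.57, while 4 of the 80 lower ones exceeded it and the top one reached −2.20. They differed in depth as well, with a median over mRNAs of 153 reads per library for the higher calls and 55.6 for the lower ones.

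The split between the sides depended on the scaling. With TMM factors, 156 mRNAs were higher (3.43%) and 11 were lower (0.242%). All 94 of the higher mRNAs were called with TMM factors too, against 11 of the 80 lower ones. When each library was left out in turn, 62 of the 94 higher mRNAs and 13 of the 80 lower ones were called every time. TMM factors raised the median log2 of the mRNAs from −0.34 to −0.01. Such a shift moves higher calls away from their cutoff and lower calls towards theirs. The calls kept with TMM factors therefore cannot show which side is firmer. The fits with a library left out kept fewer of the lower calls. Leaving out a library moved the median log2 of the mRNAs as well. It was −0.39 without the first Puf5 IP library, with 135 mRNAs called lower. Without the first Dhh1 IP library it was −0.25, with 24 called lower. These fits therefore cannot show which side is firmer either. The libraries of the groups did not overlap for any called mRNA. Among all mRNAs tested, 5.85% lay wholly higher and 33.4% wholly lower in the Puf5 IP.

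**Figure D1:**
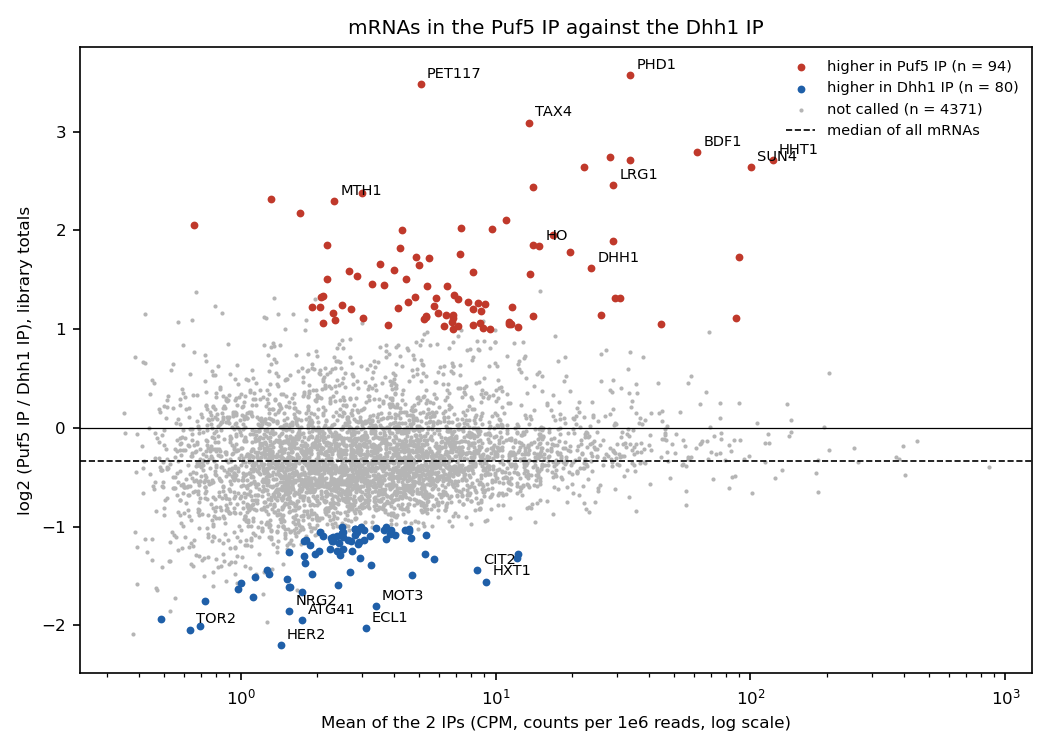
Each point is 1 of 4545 mRNAs, with the mean of the Puf5 IP and the Dhh1 IP in CPM (counts per 1e6 reads) on a log axis (x) and the log2 ratio of Puf5 IP to Dhh1 IP with library totals (y). The 94 red points are mRNAs called higher in the Puf5 IP, the 80 blue points are mRNAs called higher in the Dhh1 IP, and the dashed line at −0.34 is the median of all mRNAs, which lies below 0.

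The mRNA with the largest difference was PHD1, which encodes a transcription factor of pseudohyphal growth. It had 1487, 1147 and 1617 reads in the Puf5 IP libraries, against 134, 107 and 99 in the Dhh1 IP libraries, an 11.9-fold difference (log2 3.57 ± 0.18 SE, adjusted p = 3.77e-14). PET117, which encodes a mitochondrial factor for the assembly of cytochrome c oxidase, had 215, 200 and 225 reads in the Puf5 IP libraries, against 18, 10 and 24 in the Dhh1 IP libraries (11.2-fold, log2 3.48 ± 0.26 SE, adjusted p = 8.35e-11). TAX4, whose product acts in phosphoinositide control and autophagy, had 553, 495 and 602 reads in the Puf5 IP libraries, against 68, 69 and 46 in the Dhh1 IP libraries (log2 3.09 ± 0.20 SE, adjusted p = 2.89e-12). The lowest Puf5 IP library was thus several times above the highest Dhh1 IP library in each case, and leaving out any 1 library kept PHD1 between 3.49 and 3.68.

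BDF1, BDF2, NHP6A and IXR1 followed among the largest differences. BDF1 and BDF2 encode the paired bromodomain proteins that read acetylated histones. BDF1 had 2760, 1934 and 2709 reads in the Puf5 IP libraries, against 418, 296 and 308 in the Dhh1 IP libraries (log2 2.79 ± 0.17 SE, adjusted p = 9.8e-13), and BDF2 had 1496, 1011 and 1490 reads in the Puf5 IP libraries, against 228, 162 and 189 in the Dhh1 IP libraries (log2 2.71 ± 0.18 SE, adjusted p = 6.74e-12). The paralogs thus differed by nearly the same log2 between the IPs. NHP6A, which encodes an HMG-box protein of chromatin, had 1173, 970 and 1202 reads in the Puf5 IP libraries, against 149, 177 and 149 in the Dhh1 IP libraries (log2 2.74 ± 0.17 SE, adjusted p = 1.88e-12). IXR1, which encodes another HMG-box DNA-binding protein, had 875, 806 and 931 reads in the Puf5 IP libraries, against 161, 110 and 128 in the Dhh1 IP libraries (log2 2.64 ± 0.18 SE, adjusted p = 8.43e-12). No library of these mRNAs came near the other group.

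Of 11 histone genes tested, 5 were higher and none was lower in the Puf5 IP, with a median log2 of 0.79 (1.12 with TMM factors). HHT1, which encodes histone H3, had 6803, 2617 and 5150 reads in the Puf5 IP libraries, against 772, 695 and 650 in the Dhh1 IP libraries (log2 2.71 ± 0.20 SE, adjusted p = 9.03e-11), with the second Puf5 IP library at less than the others but still well above the Dhh1 IP. HTZ1, which encodes the variant H2A.Z, had 654, 375 and 597 reads in the Puf5 IP libraries, against 112, 92 and 80 in the Dhh1 IP libraries (log2 2.44 ± 0.21 SE, adjusted p = 1.06e-09). The linker histone gene HHO1 had 221, 177 and 249 reads in the Puf5 IP libraries, against 87, 66 and 74 in the Dhh1 IP libraries (log2 1.43 ± 0.20 SE, adjusted p = 1.55e-05), and HTA1, one of the H2A genes, had 1298, 751 and 964 reads in the Puf5 IP libraries, against 465, 347 and 347 in the Dhh1 IP libraries (log2 1.31 ± 0.18 SE, adjusted p = 8.81e-06). The fifth, which was not called without the first Puf5 IP library, was HTB2, one of the H2B genes (log2 1.14). The duplicate copies did not all follow: HHT2, the other H3 gene, had a log2 of 0.46 and HTA2, the other H2A gene, one of −0.20, and neither was called. HHT1 and HHT2 encode the same protein, and reads that match both copies may have been split between them, so the values within such a pair are uncertain. CSE4, the centromeric H3 variant, lay lowest at −0.86 and was not called.

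Among 52 subunits of chromatin remodellers, 6 were higher and none lower in the Puf5 IP, while the median, −0.30, was close to that of all mRNAs. The complexes that install and evict H2A.Z, SWR1 and INO80, were both represented. SWR1, the catalytic subunit of its complex, had 683, 640 and 749 reads in the Puf5 IP libraries, against 244, 157 and 174 in the Dhh1 IP libraries (log2 1.78 ± 0.18 SE, adjusted p = 3.15e-08). SWC3, of the same complex, had 183, 122 and 166 reads in the Puf5 IP libraries, against 44, 35 and 31 in the Dhh1 IP libraries (log2 2.01 ± 0.24 SE, adjusted p = 6.24e-07). IES3, of INO80, had 254, 236 and 316 reads in the Puf5 IP libraries, against 65, 68 and 54 in the Dhh1 IP libraries (log2 2.03 ± 0.20 SE, adjusted p = 3.15e-08). The other three were BDF1, NHP10 of INO80 and SFH1 of the RSC complex, of which SFH1 was not called without the first Puf5 IP library. Of 66 members of histone acetyltransferase and deacetylase complexes, 4 were higher (6.06%, against 2.07% of all mRNAs tested) and 2 lower (3.03%, against 1.76%). EAF5, of the NuA4 acetyltransferase, had 137, 98 and 132 reads in the Puf5 IP libraries, against 43, 38 and 28 in the Dhh1 IP libraries (log2 1.66 ± 0.24 SE, adjusted p = 2.1e-05), and UME1, of the Rpd3 deacetylase, had 130, 82 and 119 reads in the Puf5 IP libraries, against 35, 42 and 36 in the Dhh1 IP libraries (log2 1.46 ± 0.25 SE, adjusted p = 0.000166).

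SAGA, the acetyltransferase that also removes ubiquitin from histone H2B, had subunits on both sides. ADA2, of its acetyltransferase module, had 192, 146 and 150 reads in the Puf5 IP libraries, against 72, 69 and 74 in the Dhh1 IP libraries (log2 1.11 ± 0.21 SE, adjusted p = 0.000584). SGF73, which anchors its deubiquitinase module, had 51, 37 and 31 reads in the Puf5 IP libraries, against 99, 80 and 83 in the Dhh1 IP libraries (log2 −1.18 ± 0.25 SE, adjusted p = 0.00218). The ADA2 call was lost without the first Puf5 IP library (log2 0.97), and the SGF73 call was lost without the first Dhh1 IP library (adjusted p = 0.0168) or the third Puf5 IP library (adjusted p = 0.0175), and with TMM factors (adjusted p = 0.0155). The remaining calls of the list were SPT8 (log2 1.00) and TAF10 (log2 −1.10). They were lost in 4 and 5 of the 6 fits with a library left out.

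The lists of spindle genes held calls in both directions around medians close to that of all mRNAs. Of 55 genes of the spindle pole body and kinetochore, 5 were higher and 2 lower (8 and 0 with TMM factors), around a median of −0.34. DSN1, of the MIND complex of the kinetochore, had 367, 323 and 368 reads in the Puf5 IP libraries, against 108, 75 and 66 in the Dhh1 IP libraries (log2 2.02 ± 0.20 SE, adjusted p = 3e-08). NNF1, of the same complex, had 5, 9 and 7 reads in the Puf5 IP libraries, against 29, 24 and 22 in the Dhh1 IP libraries (log2 −1.75 ± 0.46 SE, adjusted p = 0.00597), with few reads, and its call was lost when any of the 6 libraries was left out and with TMM factors. DAD1, of the Dam1 ring that holds kinetochores on microtubules, had 206, 63 and 77 reads in the Puf5 IP libraries, against 22, 19 and 20 in the Dhh1 IP libraries (log2 2.38 ± 0.35 SE, adjusted p = 2.33e-05). Its first Puf5 IP library stood above the other two, and without it the log2 was 1.67 and the call remained. SPC19, also of the Dam1 ring, had 67, 67 and 73 reads in the Puf5 IP libraries, against 34, 16 and 27 in the Dhh1 IP libraries (log2 1.33 ± 0.29 SE, adjusted p = 0.00211), and this call was lost without the second Dhh1 IP library (adjusted p = 0.0180). DAM1, which gives the ring its name, went the other way, with 25, 38 and 27 reads in the Puf5 IP libraries, against 53, 57 and 77 in the Dhh1 IP libraries (log2 −1.10 ± 0.29 SE, adjusted p = 0.00901). It was added after its values were seen, and its call was lost in 5 of the 6 fits with a library left out and with TMM factors.

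Of 21 genes of kinesins, dynein and the spindle midzone, 4 were higher and 2 lower in the Puf5 IP. ASE1, whose product bundles microtubules at the midzone, had 406, 296 and 527 reads in the Puf5 IP libraries, against 128, 74 and 69 in the Dhh1 IP libraries (log2 2.11 ± 0.22 SE, adjusted p = 1.13e-07). KAR9, whose product guides the spindle towards the bud, had 695, 443 and 702 reads in the Puf5 IP libraries, against 157, 125 and 166 in the Dhh1 IP libraries (log2 1.96 ± 0.19 SE, adjusted p = 3.15e-08). CIN8, the mitotic kinesin-5 that slides spindle poles apart, had 601, 357 and 549 reads in the Puf5 IP libraries, against 160, 121 and 117 in the Dhh1 IP libraries (log2 1.85 ± 0.20 SE, adjusted p = 1.2e-07). These 3 mRNAs were separated in all libraries by at least 2-fold. JNM1, a subunit of dynactin, was called at a log2 of 1.32 but lost its call without the first or second Dhh1 IP library or the third Puf5 IP library (adjusted p between 0.0120 and 0.0228). The genes on the other side were DYN1, the dynein heavy chain (log2 −1.25), and CIK1, a partner of a kinesin (−1.08), and neither was called with TMM factors. The DYN1 call was also lost in 3 and the CIK1 call in 4 of the 6 fits with a library left out.

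The mRNAs known from earlier work as targets of Puf5 repression fell mostly on the Puf5 side: of 4, 3 were higher and none was lower, at a median log2 of 1.72. The list holds mRNAs for which Puf5 is known, so their place is no independent evidence of selectivity. LRG1, which encodes a GTPase-activating protein for Rho1, had 1159, 945 and 1239 reads in the Puf5 IP libraries, against 201, 228 and 151 in the Dhh1 IP libraries (log2 2.46 ± 0.17 SE, adjusted p = 2.36e-11). HO, the endonuclease of mating-type switching, had 681, 403 and 506 reads in the Puf5 IP libraries, against 174, 124 and 126 in the Dhh1 IP libraries (log2 1.84 ± 0.20 SE, adjusted p = 1.42e-07). STE7, the MAPK kinase of the mating and filamentous pathways, had 145, 109 and 160 reads in the Puf5 IP libraries, against 61, 30 and 38 in the Dhh1 IP libraries (log2 1.60 ± 0.25 SE, adjusted p = 5.97e-05). TEC1, which encodes a transcription factor of filamentous growth, had 74, 88 and 65 reads in the Puf5 IP libraries, against 115, 166 and 93 in the Dhh1 IP libraries and was not called (log2 −0.77 ± 0.23 SE, adjusted p = 0.0227). All 3 Puf5 IP libraries lay below the Dhh1 IP libraries, and with TMM factors the log2 was −0.45 (adjusted p = 0.261).

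Other mRNAs of the same pathways were set beside them. Of 26 tested genes of the filamentous growth and mating MAPK pathway, 4 were higher and none lower, namely PHD1, STE7, FLO8 and SFL1, around a median of −0.39. FLO8, an activator of flocculation genes, had 201, 152 and 168 reads in the Puf5 IP libraries, against 66, 43 and 48 in the Dhh1 IP libraries (log2 1.65 ± 0.22 SE, adjusted p = 5.79e-06), and SFL1, which represses such genes, had 312, 182 and 263 reads in the Puf5 IP libraries, against 95, 95 and 106 in the Dhh1 IP libraries (log2 1.28 ± 0.21 SE, adjusted p = 0.000112). Of 23 genes of the cell wall integrity pathway, 3 were higher and none lower, LRG1, ZEO1 and TUS1. The ZEO1 call was lost without the first Puf5 IP library (log2 0.90). TUS1, a Rho1 exchange factor, had 177, 129 and 272 reads in the Puf5 IP libraries, against 87, 78 and 101 in the Dhh1 IP libraries (log2 1.03 ± 0.23 SE, adjusted p = 0.00304), but the call was lost when any of 3 libraries was left out, down to a log2 of 0.73 without the third Puf5 IP library. ROM2, another Rho1 exchange factor, had 175, 133 and 179 reads in the Puf5 IP libraries, against 232, 166 and 189 in the Dhh1 IP libraries and was not called (log2 −0.33 ± 0.19 SE, adjusted p = 0.207). SUN4, which encodes a cell wall protein of septation, lay outside the list and had 4372, 3373 and 4041 reads in the Puf5 IP libraries, against 655, 577 and 570 in the Dhh1 IP libraries (log2 2.64 ± 0.14 SE, adjusted p = 1.05e-13). COX17, which encodes a copper chaperone of cytochrome c oxidase and belongs to the mitochondrial mRNAs linked to Puf3, had 21, 14 and 18 reads in the Puf5 IP libraries, against 35, 28 and 27 in the Dhh1 IP libraries and was not called (log2 −0.79 ± 0.37 SE, adjusted p = 0.110).

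**Figure D2:**
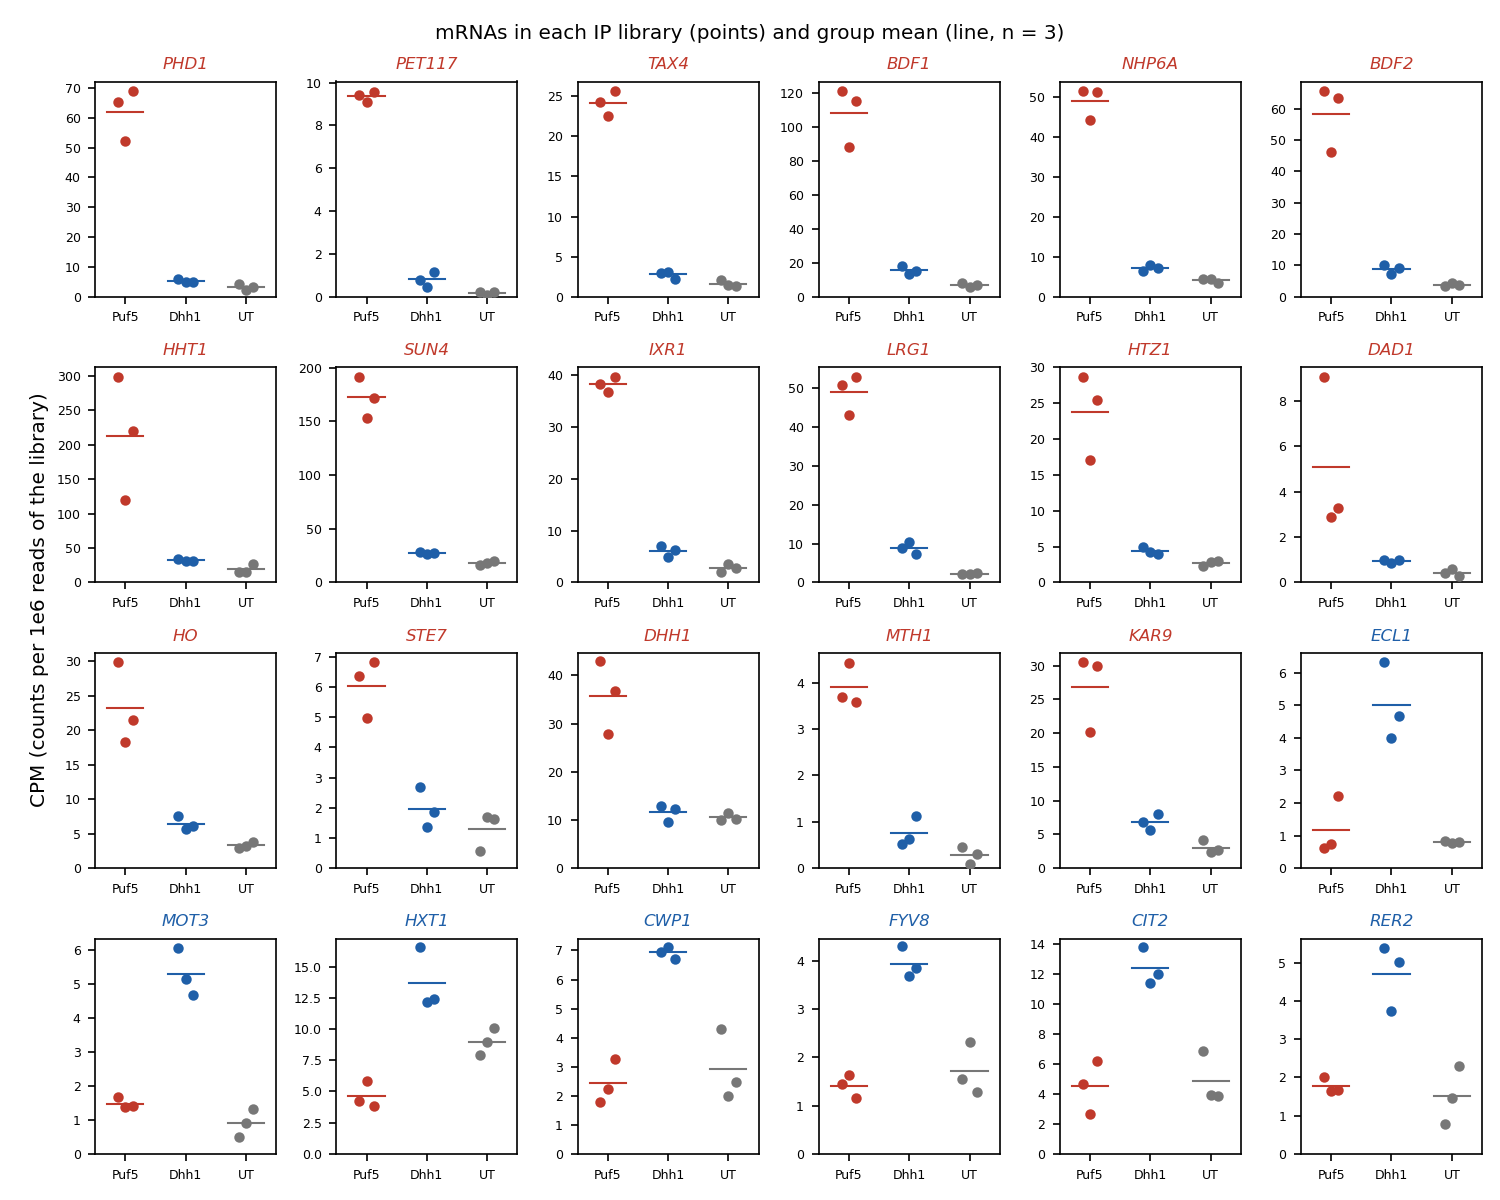
Each panel shows 1 mRNA in CPM, with the 3 libraries of the Puf5 IP (red), the Dhh1 IP (blue) and the UT IP (grey) as points and the group mean as a line. In the panels titled in red the lowest Puf5 IP library lies above the highest Dhh1 IP library, and in the panels titled in blue the highest Puf5 IP library lies below the lowest Dhh1 IP library.

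The mRNAs higher in the Dhh1 IP showed smaller differences. By the rule for named genes, 7 of them passed with both scalings at a mean of at least 50 reads. ECL1, linked to chronological lifespan, had 14, 16 and 52 reads in the Puf5 IP libraries, against 144, 88 and 96 in the Dhh1 IP libraries (log2 −2.03 ± 0.33 SE, adjusted p = 9.52e-05), with the third Puf5 IP library well above the other two. MOT3, a zinc-finger transcription factor that represses genes of hypoxia and ergosterol synthesis, had 38, 30 and 33 reads in the Puf5 IP libraries, against 138, 113 and 96 in the Dhh1 IP libraries (log2 −1.81 ± 0.24 SE, adjusted p = 5.79e-06). HXT1, the low-affinity glucose transporter induced by high glucose, had 96, 129 and 90 reads in the Puf5 IP libraries, against 378, 267 and 255 in the Dhh1 IP libraries (log2 −1.56 ± 0.21 SE, adjusted p = 5.55e-06). For HXT1 the UT IP had 189, 197 and 230 reads, above the Puf5 IP and below the Dhh1 IP.

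CIT2, the peroxisomal citrate synthase, had 106, 59 and 146 reads in the Puf5 IP libraries, against 314, 250 and 246 in the Dhh1 IP libraries (log2 −1.44 ± 0.23 SE, adjusted p = 6.61e-05). CWP1, a mannoprotein of the cell wall, had 41, 49 and 77 reads in the Puf5 IP libraries, against 158, 157 and 138 in the Dhh1 IP libraries (log2 −1.49 ± 0.23 SE, adjusted p = 4.95e-05). RER2, a prenyltransferase of dolichol synthesis, had 46, 36 and 39 reads in the Puf5 IP libraries, against 123, 82 and 103 in the Dhh1 IP libraries (log2 −1.39 ± 0.25 SE, adjusted p = 0.000264). All 7 kept their calls when each library was left out, the last of them being FYV8, a gene of unknown function (log2 −1.46). 2 further named mRNAs on this side also held in every such fit and with TMM factors, at fewer reads: ATG41, an autophagy gene, had 8, 18 and 21 reads in the Puf5 IP libraries, against 71, 53 and 58 in the Dhh1 IP libraries (log2 −1.95 ± 0.34 SE, adjusted p = 0.000166), and MHR1, which encodes a mitochondrial ribosomal and recombination protein, had 21, 23 and 23 reads in the Puf5 IP libraries, against 63, 61 and 60 in the Dhh1 IP libraries (log2 −1.48 ± 0.28 SE, adjusted p = 0.000603).

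Genes of glucose sensing lay on both sides. Of 23 regulators of glucose repression, 3 were higher and 2 lower in the Puf5 IP. MTH1, which keeps hexose transporter genes off when glucose is low, had 84, 97 and 84 reads in the Puf5 IP libraries, against 12, 14 and 23 in the Dhh1 IP libraries (log2 2.30 ± 0.30 SE, adjusted p = 2.83e-06). STD1, the paralog of MTH1, had 53, 48 and 58 reads in the Puf5 IP libraries, against 129, 121 and 86 in the Dhh1 IP libraries (log2 −1.12 ± 0.23 SE, adjusted p = 0.00134), and was picked out after its values were seen. The paralogs thus differed in opposite directions between the same libraries, STD1 only with library totals and not without the first Dhh1 IP library. MIG2, a glucose repressor, had 44, 30 and 39 reads in the Puf5 IP libraries, against 109, 64 and 101 in the Dhh1 IP libraries (log2 −1.32 ± 0.26 SE, adjusted p = 0.000972), with a call that was lost without the first Dhh1 IP library (adjusted p = 0.0136) and, just short of the 2-fold cutoff, with TMM factors. TOS3 and ELM1 encode 2 of the kinases that activate Snf1, the kinase of glucose derepression. TOS3 had 87, 48 and 103 reads in the Puf5 IP libraries, against 26, 26 and 9 in the Dhh1 IP libraries (log2 1.85 ± 0.33 SE, adjusted p = 0.000241), and ELM1, which also acts at septins, had 272, 193 and 302 reads in the Puf5 IP libraries, against 86, 67 and 61 in the Dhh1 IP libraries (log2 1.76 ± 0.21 SE, adjusted p = 7.97e-07). Of 5 hexose transporter genes tested, HXT1 was lower and the others were not called.

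Among 25 cyclins and Cdk regulators none was higher and 2 were lower, around a median of −0.58 (−0.25 with TMM factors). PCL1, a G1 cyclin of the Pho85 kinase, had 83, 69 and 58 reads in the Puf5 IP libraries, against 183, 162 and 148 in the Dhh1 IP libraries (log2 −1.28 ± 0.21 SE, adjusted p = 0.000116), just short of the 2-fold cutoff with TMM factors (log2 −0.96). The second was PCL2, of the same family, whose call was lost in 5 of the 6 fits with a library left out. Other mRNAs called lower with library totals only, chosen here after their values were seen, encode permeases for amino acids. MUP1, for methionine, had 177, 142 and 156 reads in the Puf5 IP libraries, against 389, 372 and 372 in the Dhh1 IP libraries (log2 −1.31 ± 0.18 SE, adjusted p = 7.15e-06), and DIP5, for acidic amino acids, had 162, 121 and 206 reads in the Puf5 IP libraries, against 381, 374 and 375 in the Dhh1 IP libraries (log2 −1.27 ± 0.19 SE, adjusted p = 2.99e-05). Both kept their calls when each library was left out but lay just short of the 2-fold cutoff with TMM factors (log2 −0.96 for DIP5).

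Most of the other lists lay near the median of all mRNAs and held no call or 1 call. None of the 54 and 65 tested genes of the small and large cytosolic ribosomal subunit, the 59 of the small subunit processome, the 40 translation factors, the 36 proteasome subunits or the 17 glycolytic enzymes was called in either direction, at medians between −0.48 (proteasome) and −0.19 (small ribosomal subunit). At an unadjusted p under 0.05, 11 of these 271 genes were higher and 82 lower in edgeR, against 278 and 1450 of all 4793 RNAs, and DESeq2 called 2 higher and none lower. All 36 proteasome subunits had a log2 below 0, but with TMM factors their median was −0.16. Among the 40 translation factors DED1, a DEAD-box helicase of initiation, stood highest with 2441, 1589 and 2178 reads in the Puf5 IP libraries, against 1215, 935 and 876 in the Dhh1 IP libraries. It passed the FDR but not the 2-fold cutoff (log2 0.97 ± 0.16 SE, adjusted p = 8.81e-05), and it was called with TMM factors (log2 1.29). The mitochondrial ribosomal lists had 1 lower call each, MHR1 of 40 in the large and MRP10 of 34 in the small subunit. The MRP10 call was lost in 5 of the 6 fits with a library left out (adjusted p between 0.0107 and 0.0212) and with TMM factors. None of 8 Ccr4-Not subunits and none of 7 Puf family genes was called by edgeR or DESeq2 (at an unadjusted p under 0.05, 2 Ccr4-Not subunits were lower, and 2 Puf genes were higher and 2 lower). DHH1, the gene tagged in the Dhh1 IP strain, was the 1 call among 26 decapping and P-body factors.

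**Figure D3:**
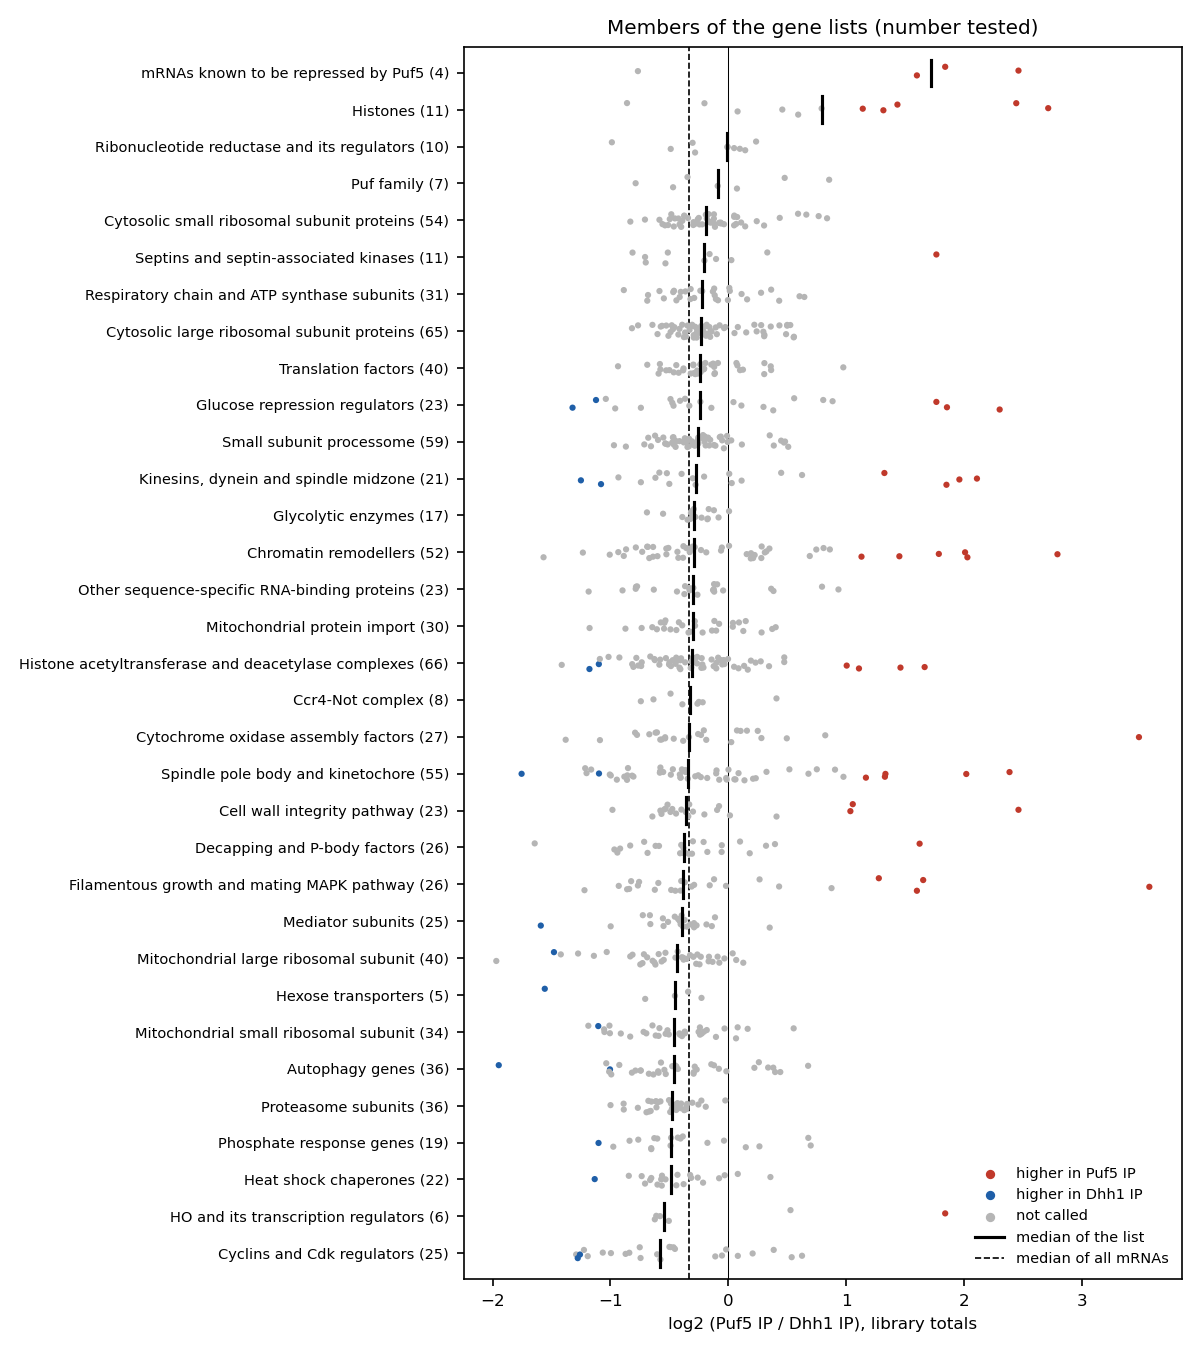
Each row is a gene list with its number of tested members, each point is the log2 ratio of Puf5 IP to Dhh1 IP of a member, and the thick bar is the list's median, with the median of all mRNAs as a dashed line. The 4 known Puf5 targets and the 11 histones have medians of 1.72 and 0.79, while in most other rows the median lies near −0.34 and single members stand apart.

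Most snoRNAs lay lower in the Puf5 IP than in the Dhh1 IP, and few passed the test. The called RNAs of all classes were 96 higher (2.00% of 4793 tested) and 88 lower (1.84%). Of 65 snoRNAs tested, none was higher and 3 were lower, and 63 had a log2 below 0, around a median of −0.54 (−0.22 with TMM factors). Among the mRNAs, 3611 of 4545 had a log2 below 0. snR24, a box C/D snoRNA, had 11, 7 and 16 reads in the Puf5 IP libraries, against 57, 40 and 42 in the Dhh1 IP libraries (log2 −2.00 ± 0.38 SE, adjusted p = 0.000368), and kept its call with TMM factors. The row of the snR72 to snR78 cluster had 628, 387 and 591 reads in the Puf5 IP libraries, against 1805, 936 and 878 in the Dhh1 IP libraries, and its call was lost without the first Dhh1 IP library, which stood above the others (log2 −0.86). In total snoRNAs took 0.0855% ± 0.0149 of the reads in the Puf5 IP and 0.127% ± 0.0155 in the Dhh1 IP, with no overlap (exact permutation test, p = 0.1). In the UT IP libraries they took 0.235%, 0.178% and 0.164%, above both tagged IPs. Their median log2 over the UT IP was −0.82 for the Puf5 IP and −0.21 for the Dhh1 IP. As a class, snoRNAs were thus not enriched over the UT IP in either.

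Of 10 tested snRNAs and other ncRNAs, 2 were lower. snR7-S, the short form of the U5 spliceosomal RNA, had 490, 306 and 372 reads in the Puf5 IP libraries, against 891, 886 and 907 in the Dhh1 IP libraries (log2 −1.27 ± 0.17 SE, adjusted p = 6.78e-06). NME1, the RNA of RNase MRP, had 1176, 1149 and 1029 reads in the Puf5 IP libraries, against 2622, 1910 and 2010 in the Dhh1 IP libraries (log2 −1.02 ± 0.14 SE, adjusted p = 1.66e-05). The UT IP held 694, 679 and 833 reads of snR7-S and 1653, 1446 and 1846 of NME1, between the groups in each case. Both were thus below the untagged level in the Puf5 IP. With TMM factors neither reached the 2-fold cutoff, at −0.96 and −0.68, and the NME1 call was also lost without the first Dhh1 IP library (log2 −0.91) or the third Puf5 IP library (−0.94). None of 93 tRNA rows was called by edgeR or DESeq2 (16 lower and none higher at an unadjusted p under 0.05), at a median of −0.23 that turned to 0.08 with TMM factors, and of 57 Ty element rows 3 were lower, led by rows with few reads. None of the Ty rows was called with TMM factors, and the calls of YGR109W-A and YIL082W-A were lost in 6 and 3 of the 6 fits with a library left out.

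The remaining class (telomeric elements, replication origins and dubious genes) has 316 rows, of which 22 passed the filter on low counts. A sparse row can pass that filter through the group where it is high. Without the filter, 249 rows of the class had a median log2 of −0.0098. The 2 calls, ARS1324 and TEL04R-TR, rested on the first Puf5 IP library: ARS1324 had 137, 30 and 43 reads in the Puf5 IP libraries, against 17, 10 and 24 in the Dhh1 IP libraries and TEL04R-TR had 116, 18 and 17 reads in the Puf5 IP libraries, against 7, 9 and 16 in the Dhh1 IP libraries. Without that library their log2 values were 0.99 and 0.60, and neither was called. Both calls were lost without the first or the second Dhh1 IP library as well. TEL02L-YP, a subtelomeric Y′ row with more reads, lies outside the rule for named genes. It had 2440, 2119 and 2659 reads in the Puf5 IP libraries, against 1673, 1306 and 1360 in the Dhh1 IP libraries (log2 0.67 ± 0.14 SE, adjusted p = 0.00154), short of the 2-fold cutoff with library totals.

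Puf proteins bind 3′ UTRs, so the reads of each mRNA were compared over 3 segments along its length (5′, middle and 3′), from counts deposited for each. The 3′ segment held 43.5%, 37.7% and 40.0% of mRNA reads in the Puf5 IP libraries and between 35.5% and 35.6% in all 3 Dhh1 IP libraries. The 5′ segment held 27.3% ± 1.28 in the Puf5 IP and 31.3% ± 0.162 in the Dhh1 IP (SD, n = 3 each). Neither set of libraries overlapped (exact permutation test, p = 0.1 each, the smallest p that 3 against 3 allows). The middle segment held 32.3% in the Puf5 IP and 33.1% in the Dhh1 IP (exact permutation test, p = 0.6). In the UT IP the 3′ segment held between 29.0% and 30.7%, below both tagged IPs.

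A test for each mRNA asked whether the ratio of Puf5 IP to Dhh1 IP differed between its ends (interaction of segment and group in edgeR, FDR under 5%). Of 4110 mRNAs with enough reads in both end segments, 109 had relatively more of the Puf5 IP in the 3′ segment (2.65%) and 4 in the 5′ segment (0.0973%). With TMM factors in each segment the counts were 51 and 7. Of the 92 mRNAs called higher in the Puf5 IP that could be tested, 39 were among the 109 and 84 had the larger ratio at the 3′ end. Of the 76 testable mRNAs called lower, 1 was among them and 43 had the larger ratio at the 3′ end. Over all 4110 mRNAs tested, 2764 had the larger ratio at the 3′ end, and 2183 with TMM factors in each segment. The end test and the call over the whole mRNA use the same reads and are not independent. Over the called higher mRNAs, the median log2 was 0.85 in the 5′ segment, 1.20 in the middle and 1.83 in the 3′ segment. Over the called lower mRNAs it was −1.27, −1.16 and −1.15, almost level, and over those not called −0.44, −0.29 and −0.24.

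**Figure D4:**
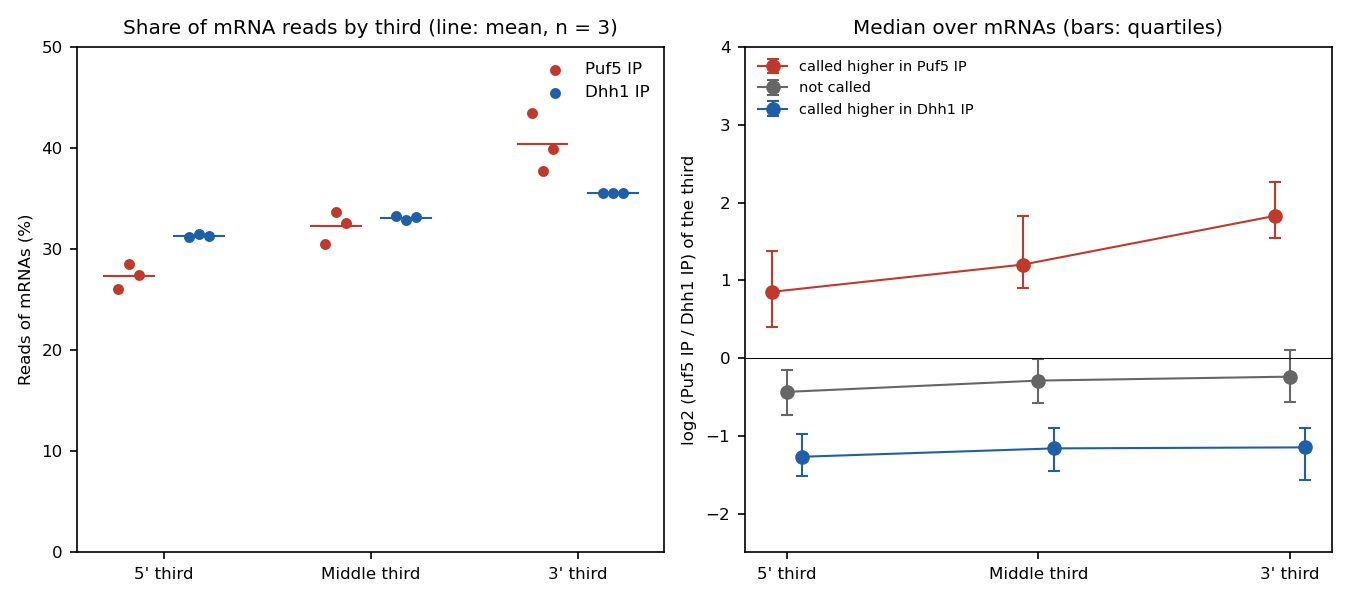
Left, the share of mRNA reads in the 5′, middle and 3′ segment of the mRNAs (%) in each Puf5 IP (red) and Dhh1 IP (blue) library, with the mean as a line; right, the median log2 ratio of Puf5 IP to Dhh1 IP of each segment over the mRNAs called higher in the Puf5 IP (red), not called (grey) and called higher in the Dhh1 IP (blue), with bars for the quartiles. The red medians climb to 1.83 in the 3′ segment, while the blue medians stay between −1.27 and −1.15.

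Single mRNAs show the gradient in reads. In DHH1 mRNA the 5′ segment had 251, 108 and 119 reads in the Puf5 IP libraries, against 124, 107 and 118 in the Dhh1 IP libraries, and the 3′ segment 559, 352 and 588 reads in the Puf5 IP libraries, against 85, 50 and 81 in the Dhh1 IP libraries (difference of log2 between the ends 2.41 ± 0.28 SE, adjusted p = 4.2e-06). The excess of DHH1 reads in the Puf5 IP thus lay towards the 3′ end. DHH1 is tagged only in the Dhh1 IP strain. In the UT IP, whose strain carries DHH1 without a tag, the 5′ segment had 86, 94 and 103 reads and the 3′ segment 59, 64 and 70. Whether a difference between the DHH1 transcripts of the strains plays a part in the excess was not tested. In IXR1 the 5′ segment had 88, 82 and 102 reads in the Puf5 IP libraries, against 58, 40 and 41 in the Dhh1 IP libraries, and the 3′ segment 604, 540 and 591 reads in the Puf5 IP libraries, against 64, 44 and 54 in the Dhh1 IP libraries (2.44 ± 0.25 SE, adjusted p = 8.61e-07). In HO the 5′ segment had 65, 60 and 58 reads in the Puf5 IP libraries, against 61, 40 and 41 in the Dhh1 IP libraries, and the 3′ segment 395, 178 and 279 reads in the Puf5 IP libraries, against 67, 42 and 36 in the Dhh1 IP libraries (2.12 ± 0.31 SE, adjusted p = 0.000134). The HO 5′ segment overlapped between the groups while the 3′ segment did not. DED1, which was not called over its whole length, had 185, 180 and 203 reads in the Puf5 IP libraries, against 270, 215 and 230 in the Dhh1 IP libraries in the 5′ segment and 1775, 927 and 1394 reads in the Puf5 IP libraries, against 435, 352 and 340 in the Dhh1 IP libraries in the 3′ segment (2.15 ± 0.21 SE, adjusted p = 3.58e-07).

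Not all strong differences had this form. PHD1 was higher in each segment, with a log2 of 3.31, 3.56 and 3.85 from the 5′ to the 3′ segment, and its ends did not pass the test (0.51 ± 0.32 SE, adjusted p = 0.515). KAR9 ran the opposite way: its 5′ segment had 526, 321 and 500 reads in the Puf5 IP libraries, against 64, 44 and 60 in the Dhh1 IP libraries, and its 3′ segment 42, 26 and 34 reads in the Puf5 IP libraries, against 52, 42 and 58 in the Dhh1 IP libraries (−3.54 ± 0.27 SE, adjusted p = 6.01e-09). KAR9 was thus higher in the Puf5 IP at its 5′ end and not at its 3′ end, and it was the 1 mRNA called higher overall among the 4 with more of the Puf5 IP in the 5′ segment. MDL2, the neighbouring gene before the KAR9 start on the same strand, had a log2 of −0.30, and −0.55 in its 3′ segment. The others of the 4 were RPH1, PEP4 and HIS3, whose differences of −1.52, −1.17 and −2.03 each lost the call when some single library was left out (adjusted p up to 0.0716, 0.117 and 0.122). YPT6 and RPB3, among the largest differences towards the 3′ end, leaned on the first Puf5 IP library. The 3′ segment of YPT6 had 160, 29 and 53 reads in the Puf5 IP libraries, against 27, 18 and 18 in the Dhh1 IP libraries, and without that library its difference was no longer called (adjusted p = 0.139), while that of RPB3 remained (adjusted p = 0.0359).

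The position of both IPs above the untagged control is given beside the direct comparison. Both ratios share the 3 UT IP libraries and so are not independent of each other. The called groups were also chosen by the ratio of Puf5 IP to Dhh1 IP in the same libraries. How these groups differ between the ratios over the UT IP therefore follows largely from that choice. Of the 94 mRNAs higher in the Puf5 IP, 93 were enriched in the Puf5 IP over the UT IP and 43 in the Dhh1 IP over the UT IP (FDR under 1%, more than 2-fold), with median log2 values of 2.56 and 1.00. Of the 80 lower ones, 4 were enriched in the Puf5 IP and 68 in the Dhh1 IP, with medians of 0.30 and 1.54. Over all mRNAs tested the medians were 0.61 and 0.94. Of the 4371 mRNAs not called in the direct test, 749 were enriched in the Puf5 IP and 1684 in the Dhh1 IP. Over the control, LRG1 stood at a log2 of 4.45 for the Puf5 IP and 1.99 for the Dhh1 IP, and PET117 at 5.43 and 1.95. The UT IP libraries held only 5, 2 and 5 reads of PET117, so its ratios over the control are uncertain. PHD1 had 4.20 and 0.63, and DHH1 mRNA 1.76 and 0.14. HXT1 had −0.95 and 0.61.

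**Figure D5:**
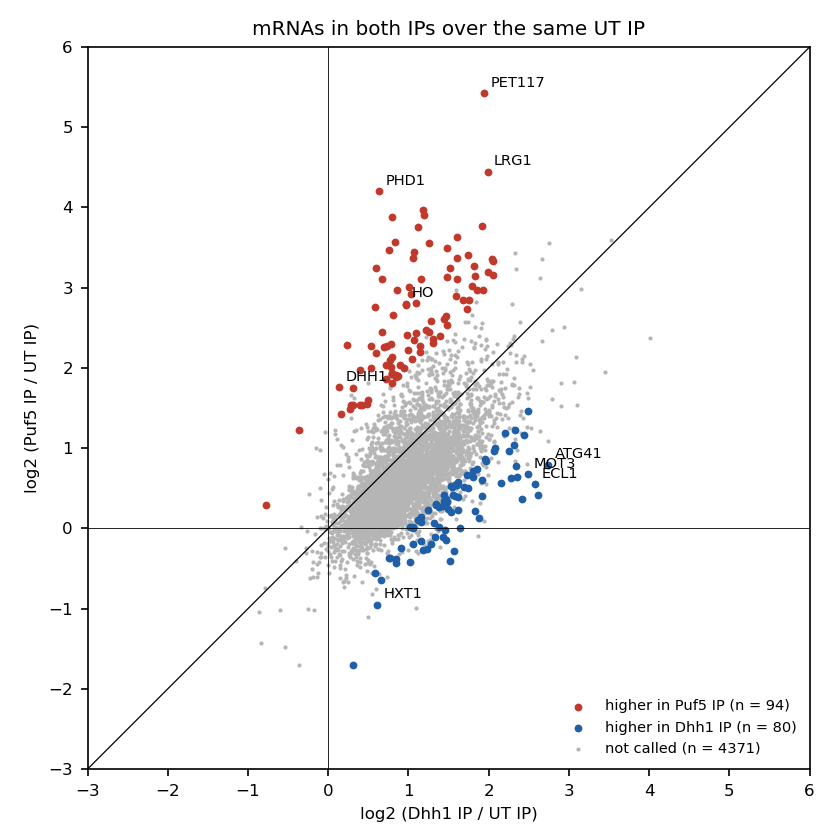
Each point is an mRNA, with its log2 ratio in the Puf5 IP over the UT IP (y) and in the Dhh1 IP over the same UT IP (x), and the diagonal marks equal ratios. The 94 red points (higher in the Puf5 IP) lie above the diagonal with a median of 2.56 on the y axis and 1.00 on the x axis, and the 80 blue points (higher in the Dhh1 IP) lie below it with medians of 0.30 and 1.54. The side of the diagonal follows from how the red and blue points were chosen.

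The level in the unselected RNA was set beside the calls. The median in the UT input was 2.56 CPM for the mRNAs higher in the Puf5 IP, 1.81 for the lower ones and 2.23 for those not called. Among 5 equal bins of mRNAs by input level, the higher calls numbered 16, 19, 19, 25 and 15 from the lowest bin to the highest. The lower calls numbered 17, 21, 30, 8 and 4, so they were fewer in the upper bins, and whether depth plays a part in this was not tested. Neighbouring genes rarely shared a call. Of the 94 higher mRNAs, 6 formed 3 adjacent pairs on a chromosome (SUN4 with AQR1, TBF1 with HHO1, MRH1 with LYS14). Of the 80 lower ones, 4 formed 2 such pairs (NTH2 with RER2, DYN1 with RHO4). Reads from overlapping transcripts could be shared within these pairs, since the sources used here do not say whether the counting per gene used strand.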

How the data were processed

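RIP-seq reads were counted per RNA by the authors after SHRiMP mapping to a yeast reference genome, and the raw counts were deposited as whole numbers without normalization, with further counts for 3 segments of each mRNA. RNA classes were taken from the type column of the deposited enrichment table. That table also holds the authors' own log2 fold changes and p-values, which were not used. No column of the count tables was left without a sample (0). Symbols came from RefSeq, which matched 4791 of 4792 mRNA rows.

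Counts were tested with edgeR 4.0.16 in R 4.3.3 (quasi-likelihood F test, filterByExpr, library totals including rRNA, prior count 1). Calls needed an FDR under 1% and a 2-fold change, and the end test an FDR under 5%, for mRNAs whose end segments both averaged 5 or more counts. Standard errors were derived from the coefficient and its F statistic. Shares were compared by exact permutation tests in scipy 1.17.1. On simulated counts the test over whole RNAs recovered 86.5% of 200 changed RNAs (log2 1.5) with 2 false calls among 4751, and the end test 54.5% with 4 false calls among 4012. Both were scored on the FDR alone, without the 2-fold cutoff. The changed RNAs were drawn from those above a floor of reads, and no shift shared by all RNAs was simulated. These rates therefore do not describe the calls reported here. Alternatives covered scaling (TMM, mRNA totals, totals without rRNA), DESeq2 1.42.0, filters, cutoffs, samples in the fit, the replicate number as a block, and each library left out. The study's methods describe the IP libraries as biological replicates.

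Named were, per direction, up to 12 mRNAs with the largest log2 called under both scalings with a mean of at least 50 reads and no overlap, the tagged genes, known targets, up to 4 called members of each of 33 gene lists (or the 2 with the largest log2), up to 3 called RNAs of each other class, and 4 mRNAs per direction of the end test. The comparison, the lists and the rule were chosen with earlier results of these data known. A planned search for Puf motifs was not run, since no genome sequence was used here.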

Additional observations from a re-analysis of the deposited data

How the results depend on the processing

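The count of higher RNAs (96) was 159 with TMM factors and 159 with DESeq2, and between 73 and 106 when each library was left out. It was 164 with TMM factors and the replicate number as a block, 281 with TMM factors at the same FDR with the fold cutoff dropped, and between 79 and 129 under the other alternatives that kept every library. The count of lower RNAs (88) was less stable. It was 12 with TMM factors (14 with the block and 38 without the fold cutoff), 32 with totals over mRNAs, 23 with totals without rRNA, 16 with DESeq2 and 38 with all 12 IP libraries in the fit. It was 198 at the same FDR with the fold cutoff dropped, 194 at an FDR under 5% and 212 with a Poisson exact test on pairs. Leaving out a library gave between 27 (without the first Dhh1 IP library) and 150 (without the first Puf5 IP library), and 35 without the second Puf5 IP library. With TMM factors and a library left out, alternatives chosen after seeing the data, the counts were between 140 and 160 higher and between 8 and 21 lower. The median log2 of mRNAs (−0.34) was −0.0134 with TMM factors, −0.175 with mRNA totals, −0.132 without rRNA and −0.0184 with DESeq2, and between −0.39 and −0.25 with a library left out. The cause of these differences between scalings was not tested.

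The replicate numbers are shared by the groups, but same-numbered libraries did not deviate together (correlations of deviations of 0.0179, 0.0137 and 0.0200). With the replicate number as a block there were 96 higher and 137 lower RNAs, 91 and 88 of them shared with the fit without the block.

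The difference in mRNA share (−0.364 percentage points) became 2.60 without rRNA in the total. CCR4 turned to a log2 of 0.0666 with TMM factors and 0.0623 with DESeq2. The count of mRNAs with more of the Puf5 IP in the 3′ segment (109) was 51 with TMM factors per segment, 39 at an FDR under 1%, and between 40 (without the second Dhh1 IP library) and 172 (without the second Puf5 IP library) with a library left out, with 45 and 49 without the third and first Dhh1 IP library. The count in the 5′ segment (4) was 7 with TMM factors per segment, 7 with at least 10 counts in each end, 2 at an FDR under 1%, and between 2 and 9 with a library left out. Of the 39 named RNAs called higher, 31 kept the call without each library, and of the 27 called lower, 13 did. The called lower mRNAs had a median of 55.6 reads per library, and with RNAs of at least 50 counts on average 53 lower mRNAs were called.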
